A study of Mus musculus with 10 samples.

Results

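Genes of hepatic stellate cells and of the extracellular matrix were followed in mouse liver cells with and without hepatocyte-directed deletion of EP300, a histone acetyltransferase and transcriptional coactivator. The 44 listed genes were chosen by name and sorted by role, and 43 of them had 10 or more counts in at least 2 libraries, out of 14309 such genes among the 55385 identifiers of the EP300 table. Tagln, a contractile gene, stayed outside with 4 and 3 counts in the WT-labelled and 6 and 3 in the KO-labelled libraries. Of its exon sequence 67.9% overlaps another gene, whose reads cannot be told apart without strand, so its level is uncertain. Acta2 and Timp1 met the count threshold with few counts, at 59 and 41 against 16 and 9 counts and 34 and 23 against 15 and 16 counts. All mice of this comparison were of strain C57BL/6J 129SV and carried a floxed EP300 gene. They ate a diet with the liver toxin DDC and received the receptor tyrosine kinase gene cMet on the plasmid pT3-cMet by hydrodynamic tail vein injection, for 5 months. The KO-labelled group (2 libraries) was given AAV-TBG-Cre, and the WT-labelled group (EP300f/f, 2 libraries) AAV-TBG-GFP, which carries a fluorescent protein. The TBG promoter is active in hepatocytes, so stellate cells are not the cells to which Cre was directed. The labels call the material liver hepatocyte, state that cells were sorted after perfusion, and tie no library to an animal. The p-values therefore measure only the spread between libraries, which may be technical. The diet experiment of the same series was not used here.

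Stellate cells lie between hepatocytes and the sinusoidal endothelium, where in healthy liver they store vitamin A. After injury they can become myofibroblasts, which express contractile proteins and secrete fibrillar collagen, a change driven by TGF-beta and PDGF. The basement membrane is a different kind of matrix, a sheet of type IV collagen and laminin joined by nidogen and perlecan. Hepatocytes, endothelial cells and bile duct cells also make matrix proteins, and hepatocytes are the source of plasma fibronectin.

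Total counts ranged from 17709799 to 18831671 per library, and the 44 genes took 0.548% and 0.528% of the counts in the WT-labelled libraries and 0.425% and 0.426% in the KO-labelled ones. Ep300 itself was higher in the KO-labelled libraries (log2 fold change 0.28, SE 0.069, edgeR adjusted p = 0.00498, and 0.128 without EP300 WT replicate 2). A count over the whole gene cannot show whether an exon was deleted, so every direction below is between libraries as labelled. Alb, serum albumin of hepatocytes, stood at 71371 to 78346 CPM, read counts scaled to a common library size after TMM adjustment. Markers of other cells were present too, among them Stab2 of sinusoidal endothelium at 67.9 to 79.4 CPM and Clec4f of Kupffer cells at 70.4 to 75.9 CPM. The noncoding RNA Xist, made from the inactive X chromosome, had 3 and 2 counts in the WT-labelled libraries against 2310 and 1411 in the KO-labelled ones, while the Y-linked gene Ddx3y had 1079 and 1077 against 954 and 813. The part of this difference in the results below was not tested. Bulk libraries cannot tell fewer cells of a type from less RNA per cell.

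In the KO-labelled libraries, 20 of the 43 matrix and stellate genes fell and 4 rose, at an adjusted p below 0.05 in edgeR's quasi-likelihood test. Over all 14200 genes tested, 17.5% fell and 16.7% rose. The genes that fell came from every role, and 5 of them fell at least 2-fold, namely Fbln2, Reln, Acta2, Nid1 and Col5a2, where 5.01% of all genes did. The 4 that rose were Col27a1, Col6a1, Col18a1 and Ecm1, and of these Col27a1 rose at least 2-fold, where 3.15% of all genes did. The median log2 fold change was -0.29 over the 43 genes and -0.01 over all genes. Both KO-labelled libraries lay below both WT-labelled libraries for 27 of the 43 genes (33.5% of all genes) and above them for 5 (32.9% of all genes). Leaving out 1 library at a time gave 14 to 21 members that fell and 2 to 4 that rose, with the 2 from the fit without EP300 WT replicate 1. The number of calls over all genes also dropped in the fits without a WT-labelled library. Library size scaling alone moved the median of all genes to -0.07 and the share of falls among all genes called from 51.2% to 62.3%. It gave 23 members that fell and 3 that rose.

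**Figure D1:**
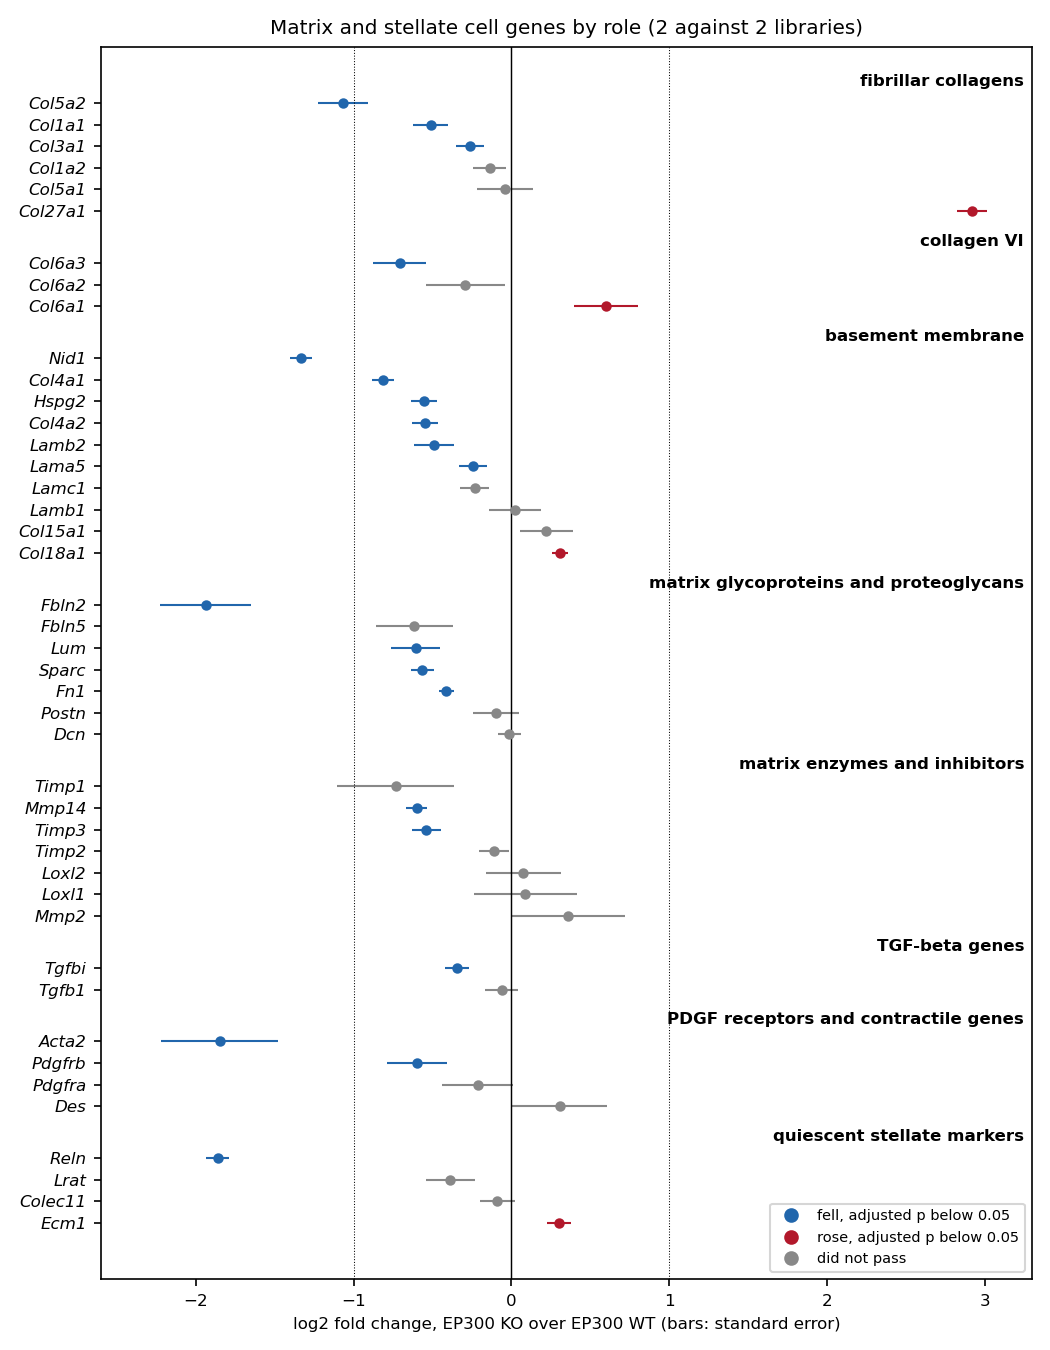
Log2 fold change of the 43 tested genes between KO-labelled and WT-labelled libraries (x axis, log2 scale, bars are standard errors, 2 libraries a group), sorted by role (y axis). Blue points fell and red points rose at an adjusted p below 0.05, and grey points did not pass. Most points lie left of 0, and Col27a1 stands alone at 2.92.

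The bases before the start site are shown for Reln and Nid1, which fell at least 2-fold, and for Col27a1, which rose at least 2-fold, so that promoters of opposite direction can be read side by side. The windows of Acta2 and Fbln2 lie mostly in annotated exons and are not shown. RefSeq start sites on GRCm38.p6 (mm10) were used, and letters run 5′ to 3′ on the strand of the gene, without bases in annotated exons. Capitals mark the GC box (GGGCGG) and the CCAAT box (CCAAT), each on either strand.
Reln, chr5:22344706-22344955, minus strand: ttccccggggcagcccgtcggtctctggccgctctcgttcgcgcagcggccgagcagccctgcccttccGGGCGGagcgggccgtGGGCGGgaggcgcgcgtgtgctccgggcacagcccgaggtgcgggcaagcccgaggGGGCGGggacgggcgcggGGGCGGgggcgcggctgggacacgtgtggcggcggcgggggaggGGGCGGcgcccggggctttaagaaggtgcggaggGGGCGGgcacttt
Nid1, chr13:13437352-13437550, plus strand: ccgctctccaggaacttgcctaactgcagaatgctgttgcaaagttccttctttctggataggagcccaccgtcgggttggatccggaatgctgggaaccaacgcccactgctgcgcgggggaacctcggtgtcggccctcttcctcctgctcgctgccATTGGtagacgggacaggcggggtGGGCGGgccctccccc
Col27a1, chr4:63215162-63215411, plus strand: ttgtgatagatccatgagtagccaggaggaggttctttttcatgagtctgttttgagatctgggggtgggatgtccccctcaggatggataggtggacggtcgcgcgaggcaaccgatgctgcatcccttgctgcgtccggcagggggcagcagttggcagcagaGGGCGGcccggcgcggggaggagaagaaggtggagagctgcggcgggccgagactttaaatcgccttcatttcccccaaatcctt
The Reln stretch holds 6 GC boxes, and those of Nid1 and Col27a1 hold 1 each, beside 1 CCAAT box in Nid1. The Nid1 stretch ends 52 bases before the RefSeq start, where an annotated exon begins, and the Col27a1 stretch lies inside the gene as GENCODE draws it. A gene was counted as holding a motif if any of its RefSeq start sites had it in the 250 bases before, over the 33 members with an entry and over the 10466 tested genes with one. The GC box was found for 22 members (66.7%) and 61.1% of tested genes, and the CCAAT box for 11 members (33.3%) and 40.3%. The TATA box (TATAAA) was found for 3 members and 8.65% of tested genes. The AP-1 site (TGANTCA) was found for 2 members and 5.88% of tested genes. The CArG box, which serum response factor binds, was found for 0 members and 1.39% of tested genes. It was counted only in the strict form CCWWWWWWGG, where W is A or T, so sites that differ from these letters were missed. Counted by single promoter over all 32851 entries, of expressed genes or not, the GC box was in 32.7% and the CCAAT box in 33.8%. A match describes letters and not a bound site.

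The fibrillar collagens, which form the ropes of scar tissue, did not move as one class. Of the 6, 3 fell (Col5a2, Col1a1 and Col3a1), 1 rose (Col27a1), and Col1a2 (-0.14) and Col5a1 (-0.039) did not pass. Col3a1, the chain of type III collagen, stood at 31.4 and 32.3 CPM under the WT label and at 24.8 and 28.3 under the KO label (log2 fold change -0.26, SE 0.090, edgeR adjusted p = 0.0348). Col1a1, a chain of type I collagen, stood at 21.8 and 19.2 against 13.7 and 15.003 CPM (-0.51, SE 0.11, edgeR adjusted p = 0.00177). The groups did not overlap for either gene. The partner chain of type I collagen, Col1a2, was at 19.4 and 17.2 against 16.9 and 16.4 CPM. The call of Col3a1 ended when EP300 KO replicate 1 (adjusted p = 0.22), EP300 WT replicate 1 (0.174) or EP300 WT replicate 2 (0.276) was left out, and that of Col1a1 when EP300 WT replicate 1 was (0.0773). DESeq2 did not call Col3a1 (adjusted p = 0.169), and edgeR without a filter on low counts called neither Col3a1 (0.183) nor Col1a1 (0.0516).

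Col5a2 (chromosome 1, 45374321 to 45503282, mm10), a chain of type V collagen, which sets the thickness of collagen fibrils, stood at 10.8 and 12.3 CPM under the WT label and at 4.86 and 6.15 under the KO label. This is a 2.10-fold fall with groups apart (log2 fold change -1.07, SE 0.16, edgeR adjusted p = 6.19e-05). Its partner chain Col5a1 overlapped between groups, at 5.48 and 5.25 against 5.27 and 5.17 CPM. Col27a1 (chromosome 4, 63214004 to 63334991, mm10), a fibrillar collagen best known from cartilage, went the other way. It stood at 8.06 and 7.85 CPM under the WT label and at 63.02 and 57.4 under the KO label, a 7.56-fold rise (log2 fold change 2.92, SE 0.10, edgeR adjusted p = 1.95e-12). Both KO-labelled libraries lay far above the others, and the log2 value stayed between 2.86 and 2.99 when 1 library was left out. The 6 genes summed to 96.9 and 94.1 CPM under the WT label and 129 and 128 under the KO label. Without Col27a1 the order was the opposite, at 88.9 and 86.2 against 65.5 and 71.05 CPM.

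The 3 chains of type VI collagen, which forms beaded filaments around cells, also split. Col6a3 fell, from 7.32 and 7.59 CPM under the WT label to 4.80 and 4.31 under the KO label (log2 fold change -0.71, SE 0.17, edgeR adjusted p = 0.00394). Col6a1 rose, from 3.26 and 4.57 to 6.13 and 5.75 CPM (0.60, SE 0.20, edgeR adjusted p = 0.0317). The groups were apart for both genes, while Col6a2, at 3.21 and 2.65 against 2.20 and 2.59 CPM, did not pass (-0.29, SE 0.25). Col6a3 lost its call without EP300 WT replicate 2 (adjusted p = 0.076), and Col6a1 without EP300 KO replicate 1 (0.051) or EP300 WT replicate 1 (0.289, log2 fold change 0.38). Col6a1 was also not called by DESeq2 (adjusted p = 0.139), by edgeR under library size scaling (0.0537) or by edgeR without a filter (0.145).

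Basement membrane genes mostly fell, while their most abundant member rose. Of 10, 6 fell (Nid1, Col4a1, Hspg2, Col4a2, Lamb2 and Lama5) and 1 rose (Col18a1), with a median log2 fold change of -0.37. Nid1 (chromosome 13, 13437551 to 13512269, mm10) encodes nidogen, the linker between laminin and type IV collagen. It stood at 370.4 and 364 CPM under the WT label and at 133 and 158 under the KO label, a 2.52-fold fall (log2 fold change -1.33, SE 0.072, edgeR adjusted p = 7.52e-10). Both KO-labelled libraries lay far below either WT-labelled one.

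Col4a1 and Col4a2, whose products twist into the type IV collagen network, lie head to head on chromosome 8, and in GENCODE and RefSeq they start at 11312826 and 11312805 (mm10), in opposite directions. Col4a1 stood at 95.4 and 93.4 against 50.5 and 56.8 CPM (-0.81, SE 0.072) and Col4a2 at 53.3 and 51.5 against 38.4 and 33.2 CPM (-0.55, SE 0.083). Both were lower in each KO-labelled library than in either WT-labelled one. Hspg2, perlecan, a large heparan sulfate proteoglycan, fell by 0.55 on the log2 scale (SE 0.082).

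Among laminin chains, Lamb2 (-0.49, SE 0.13, edgeR adjusted p = 0.00706) and Lama5 (-0.24, SE 0.088, edgeR adjusted p = 0.0422) fell, and Lamc1 (-0.23) and Lamb1 (0.021) did not pass. Lamb2 lost its call without EP300 WT replicate 1 (adjusted p = 0.14) and Lama5 without EP300 KO replicate 1 (0.0658), EP300 WT replicate 1 (0.367) or EP300 WT replicate 2 (0.115), whereas Lamc1 passed without EP300 KO replicate 1 (0.0405). DESeq2 (adjusted p = 0.0543 for Lamb2 and 0.204 for Lama5) and edgeR without a filter (0.0731 and 0.148) called neither. Col15a1, a collagen of the outer face of basement membranes, did not pass either (0.22, edgeR adjusted p = 0.345).

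Col18a1, whose C-terminal fragment is endostatin, was at 1034 and 1009 CPM under the WT label and 1283 and 1248 under the KO label. It rose by a small amount with groups well apart (0.31, SE 0.050, edgeR adjusted p = 0.000152). Without Col18a1, left out after its value was seen, the other basement membrane genes summed to 674 and 647 CPM under the WT label. They summed to 339.8 and 363 CPM under the KO label. Nid1 alone gave 370.4 and 364 CPM of the first sums and 133 and 158 CPM of the second. Endothelial cells make basement membrane, and of 18 endothelial markers 11 fell and 0 rose by edgeR (median -0.28; 1 rose at an unadjusted p below 0.05, and 0 by DESeq2 or limma-voom). The summed level of those markers was 708 to 719 CPM under the WT label and 573 to 619 under the KO label, and none of the 18 was at 0 in any library. With EP300 WT replicate 1 left out 5 of them fell, and with EP300 WT replicate 2 left out 6. The part of endothelial RNA in the basement membrane result was not tested.

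**Figure D2:**
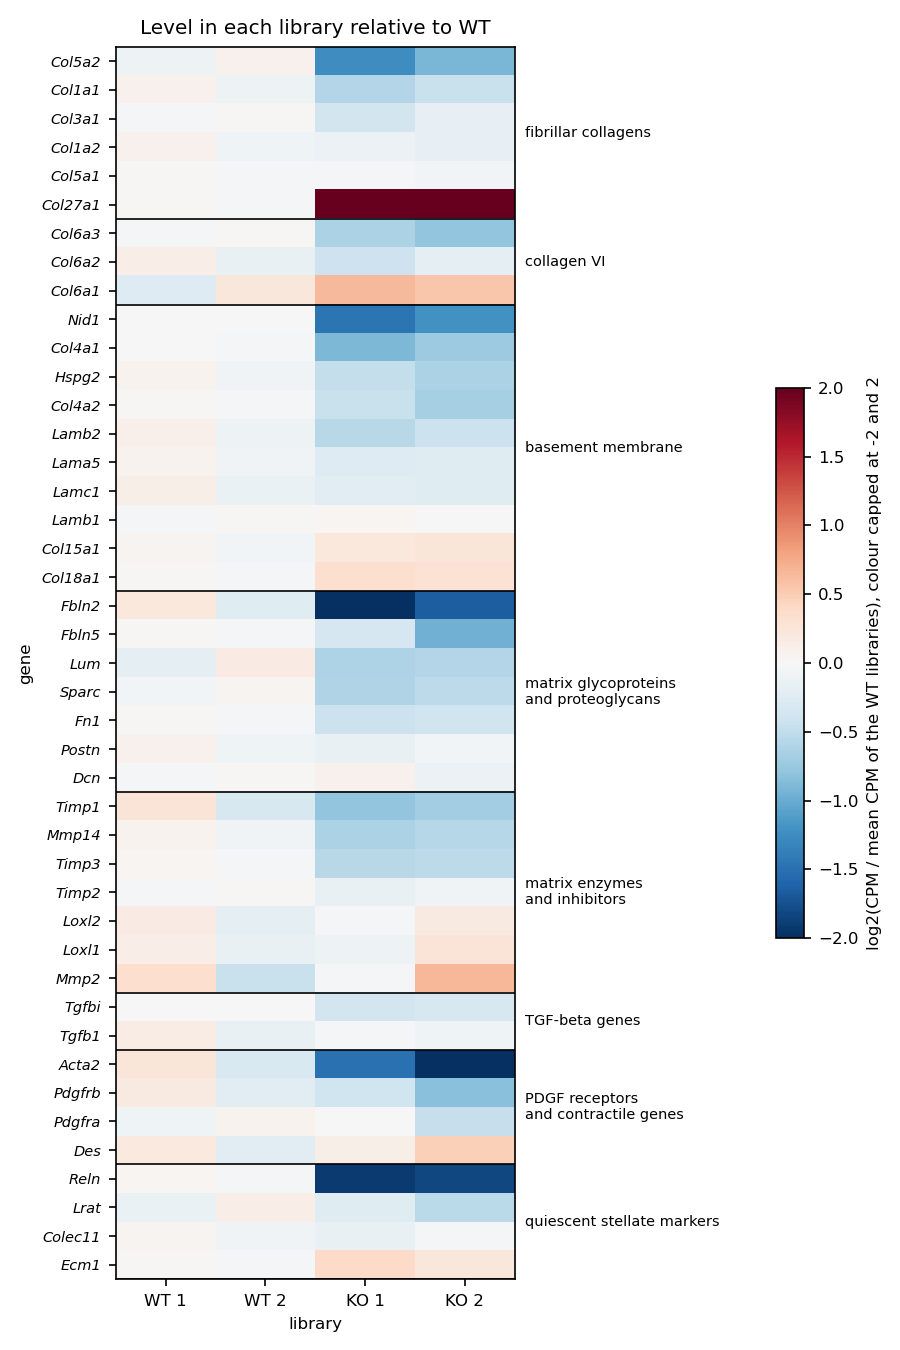
Level of each of the 43 genes (y axis, by role) in each library (x axis), as log2 of CPM over the mean CPM of the WT-labelled libraries, with colour capped at -2 and 2. Blue cells fill the KO-labelled columns for Nid1, Col4a1, Hspg2 and Reln, and Col27a1, Col6a1, Col18a1 and Ecm1 are red there.

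Matrix glycoproteins and proteoglycans fell or did not pass. Of 7 genes, 4 fell (Fbln2, Lum, Sparc and Fn1) and 0 rose by edgeR, DESeq2 or limma-voom, also at an unadjusted p below 0.05, and all 7 had a negative log2 fold change (median -0.56). Fn1, fibronectin, stood at 2913 and 2789 CPM under the WT label and at 2125 and 2159 under the KO label (-0.41, SE 0.047, edgeR adjusted p = 4.94e-06). Sparc, a collagen-binding protein, stood at 73.9 and 79.6 against 50.5 and 53.3 CPM (-0.56, SE 0.071, edgeR adjusted p = 1.38e-05). For both, each KO-labelled library lay below both WT-labelled ones.

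Fbln2 (chromosome 6, 91212455 to 91272540, mm10), fibulin-2 of elastic fibres, had the largest fitted fall of the 43 genes, at low counts. It stood at 5.37 and 3.95 CPM under the WT label and at 0.926 and 1.49 under the KO label (log2 fold change -1.94, SE 0.29, edgeR adjusted p = 7.36e-05). The groups were apart, and the log2 value stayed between -2.32 and -1.62 when 1 library was left out. Lum, lumican, which spaces collagen fibrils, fell (-0.60, SE 0.16, edgeR adjusted p = 0.00642), a call lost without EP300 WT replicate 2 (0.17) and without a filter (0.0924). Fbln5 (-0.62, edgeR adjusted p = 0.0643, and 0.00805 without EP300 KO replicate 1) and Postn, periostin (-0.10), did not pass. Dcn, decorin, which binds collagen and TGF-beta and is a marker of stellate cells and fibroblasts, overlapped between groups at 79.4 and 82.1 against 85.4 and 74.8 CPM (-0.012, SE 0.072).

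Among enzymes and inhibitors that shape the matrix, 2 of 7 fell and 0 rose by edgeR, DESeq2 or limma-voom, also at an unadjusted p below 0.05. Mmp14, a membrane-bound metalloproteinase that activates Mmp2, stood at 105 and 95.6 CPM under the WT label and at 65.05 and 67.3 under the KO label (-0.60, SE 0.069, edgeR adjusted p = 4.81e-06). Timp3, a matrix-bound metalloproteinase inhibitor, fell by 0.54 on the log2 scale (SE 0.091), but 21.3% of its exon sequence overlaps another gene, whose reads cannot be told apart without strand. Timp2, another inhibitor, did not pass, at 22.5 and 23.4 against 20.7 and 21.8 CPM (-0.11). Timp1, a widely used marker of fibrosis, was low, at 1.79 and 1.20 against 0.868 and 0.920 CPM, and did not pass (-0.73, SE 0.37, edgeR adjusted p = 0.148). Mmp2 and the collagen crosslinking enzymes Loxl1 and Loxl2 did not pass, and the groups of each overlapped.

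Of the genes named for TGF-beta, the cytokine did not pass and the target fell. Tgfb1, which drives stellate cell activation, stood at 24.6 and 20.1 CPM under the WT label and at 21.8 and 20.98 under the KO label (-0.062, SE 0.11, edgeR adjusted p = 0.699), and its groups overlapped. Tgfbi, a matrix protein induced by TGF-beta, stood at 46.2 and 46.9 against 35.996 and 37.3 CPM (-0.34, SE 0.076, edgeR adjusted p = 0.00221). Tgfbi was lower in each KO-labelled library than in either WT-labelled one, and lost its call without EP300 WT replicate 2 (0.0758).

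Of the PDGF receptors and contractile genes, 2 of 4 tested fell and 0 rose by edgeR, DESeq2 or limma-voom, also at an unadjusted p below 0.05. Acta2 (chromosome 19, 34241090 to 34255590, mm10), smooth muscle actin, the hallmark of myofibroblasts, stood at 3.11 and 2.13 CPM under the WT label and at 0.926 and 0.517 under the KO label (log2 fold change -1.85, SE 0.37, edgeR adjusted p = 0.00108). The groups were apart at few counts, and the call ended without EP300 WT replicate 1 (0.0539). Pdgfrb, the PDGF receptor that marks stellate cells and pericytes, stood at 8.95 and 6.86 against 6.02 and 4.43 CPM (-0.60, SE 0.19, edgeR adjusted p = 0.0234). Its groups were apart, and its call ended without EP300 KO replicate 2 (0.109, log2 fold change -0.39), EP300 WT replicate 1 (0.314) or EP300 WT replicate 2 (0.0646), by DESeq2 (0.0991) and without a filter (0.19). Pdgfra, the other PDGF receptor (3.74 and 4.16 against 3.94 and 2.87 CPM), and Des, desmin of the cytoskeleton (1.95 and 1.46 against 1.85 and 2.36 CPM), did not pass and their groups overlapped. Of 10 smooth muscle markers 4 could be tested, of which 2 fell (Cald1 and Smtn) and 2 rose (Mylk and Tpm2). The summed level of the list was 313 to 319 CPM under the WT label and 249 to 266 under the KO label, mostly from Cald1 and Mylk, which other cells also express. Smtn, smoothelin, fell in the same direction as Acta2, from 6.37 and 5.87 to 4.17 and 3.62 CPM (-0.65, SE 0.19). Tpm2 and Mylk went the opposite way. Tpm2 rose at few counts, from 0.421 and 0.572 to 1.10 and 1.21 CPM (1.20, SE 0.43). Mylk rose from 73.4 and 73.1 to 96.5 and 86.1 CPM (0.32, SE 0.070). Of the markers too low to test, Myh11 had 6 and 13 counts under the WT label and 4 and 3 under the KO label, and Lmod1 5 and 12 against 2 and 1, both lower in each KO-labelled library. Synpo2 had 4 and 6 counts under the WT label and 8 and 5 under the KO label, and its groups overlapped. Myocd was at 0 in every library. Actg2 had 1 and 1 counts under the WT label and 0 and 0 under the KO label, and Cnn1 0 and 0 against 1 and 2. The part of smooth muscle RNA in the Acta2 result was not tested.

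The markers of resting stellate cells gave no common direction, as 1 of 4 fell, 1 rose and 2 did not pass. Reln (chromosome 5, 21884454 to 22344702, mm10), the secreted glycoprotein reelin, stood at 119 and 113 CPM under the WT label and at 30.9 and 32.9 under the KO label. This is a 3.63-fold fall with groups far apart (log2 fold change -1.86, SE 0.072, edgeR adjusted p = 1.11e-11), and leaving out 1 library gave -1.90 to -1.81. Lrat, which esterifies retinol for storage, stood at 8.74 and 10.5 against 8.10 and 6.61 CPM and did not pass (-0.39, SE 0.16, edgeR adjusted p = 0.0681), though it did without EP300 KO replicate 1 (0.0122). Colec11, a collectin of innate defence, overlapped between groups, at 15.7 and 14.4 against 13.7 and 14.7 CPM (-0.089). Ecm1, a secreted protein that holds TGF-beta in its latent form, stood at 56.5 and 54.5 against 72.2 and 64.6 CPM and rose (0.30, SE 0.074, edgeR adjusted p = 0.00475). Both KO-labelled libraries were the higher ones for Ecm1, and its call ended without EP300 WT replicate 1 (0.0657) or EP300 WT replicate 2 (0.117) and without a filter on low counts (0.0622).

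Of 17 further stellate cell markers tested, 5 fell and 3 rose (29.4% and 17.6%, beside 17.5% and 16.7% of all genes tested). Their median was 0.08, and Gfap, a stellate marker too low to test, was at 0.0520 to 0.231 CPM. Cxcl12, a chemokine, stood at 115 and 108 CPM under the WT label and 174 and 166 under the KO label (0.61, SE 0.063). Cxcl12 was the higher in both KO-labelled libraries, and its groups were apart. The markers summed to 293 and 281 CPM under the WT label and 294 and 289 under the KO label. Without EP300 KO replicate 1, EP300 WT replicate 1 or EP300 WT replicate 2, 1 of them rose, and without EP300 KO replicate 2, 5 did.

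**Figure D3:**
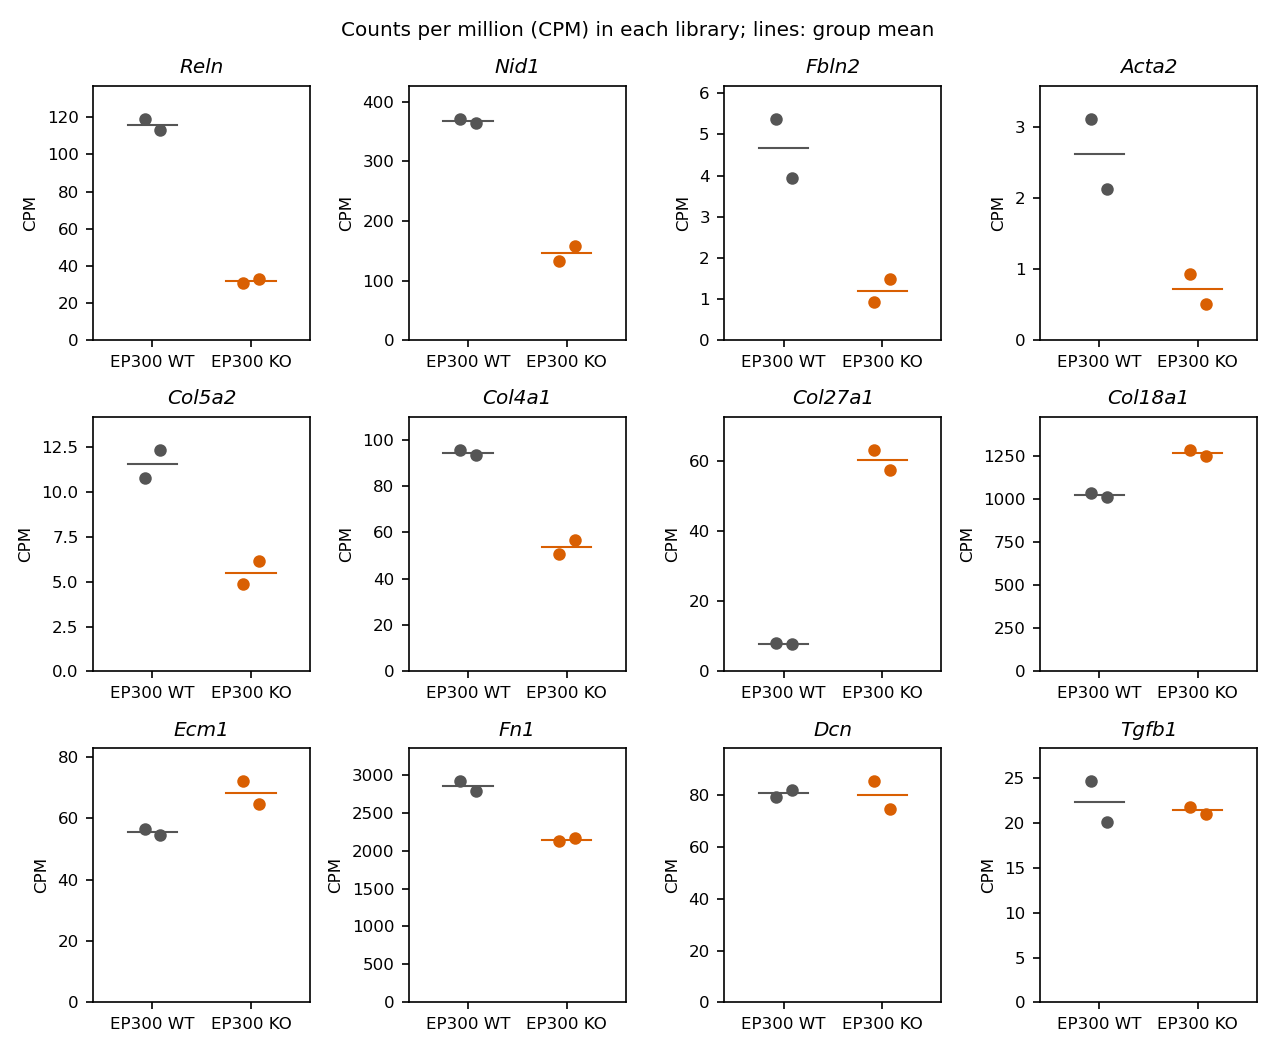
CPM (y axis, from 0, scale differs by gene) of 12 genes in each library (points) with the group mean (line), for WT-labelled and KO-labelled libraries. Reln, Nid1, Fbln2, Acta2, Col5a2, Col4a1 and Fn1 are lower in both KO-labelled libraries, Col27a1, Col18a1 and Ecm1 are higher, and the points of Dcn and Tgfb1 overlap.

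Per kilobase of exon, levels of the members spanned a wide range. Under the WT label Fn1 led at a mean of 244 CPM per kilobase, followed by Col18a1 at 146, Nid1 at 52.9, Ecm1 at 21.998 and Sparc at 20.3. Under the KO label Fn1 stood at 183 CPM per kilobase, Col18a1 at 180.3, Ecm1 at 27.1 and Nid1 at 20.99, so that Ecm1 came above Nid1. Fn1 made up 54.1% of the members' summed mean CPM under the WT label and 49.2% under the KO label, and Col18a1 19.4% and 29.1%. The members other than Fn1, Col18a1 and Col27a1, a trio chosen after its values were seen, summed to 1410 and 1363 CPM under the WT label and to 879 and 897 under the KO label.

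The wider TGF-beta and BMP pathway, a list of 38 genes all tested, had 15 genes that fell and 4 that rose (median -0.23). These are 39.5% and 10.5%, beside 17.5% and 16.7% of all genes tested, the shares to set beside the lists below too. Inhbe, which encodes an activin subunit made in hepatocytes, rose from 19.4 and 20.3 to 56.7 and 51.7 CPM (1.45, SE 0.085). Its groups were far apart. Inhba (-1.23, SE 0.12) and Inhbb (-0.73, SE 0.12), which encode other activin subunits and were named after their values were seen, fell. The receptor Tgfbr2, named after its values were seen, fell from 119 and 108 to 69.2 and 75.6 CPM (-0.65, SE 0.072), and Smad7, which blocks TGF-beta receptors and was named in the same way, rose from 21.3 and 19.3 to 52.7 and 40.5 CPM. Of the 4 PDGF ligands, Pdgfc fell (-0.94, SE 0.16), and 0 rose by edgeR, DESeq2 or limma-voom, also at an unadjusted p below 0.05.

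Of 22 genes tested that fold, modify and crosslink collagen, 2 fell (9.09%) and 3 rose (13.6%), where 17.5% and 16.7% of all genes tested did. Serpinh1, the collagen chaperone HSP47, fell from 13.4 and 13.04 to 6.77 and 6.50 CPM (1.99-fold, SE 0.13 on the log2 scale). Adamts14, which trims procollagen, fell from 6.48 and 7.12 to 0.926 and 1.49 CPM (-2.48, SE 0.25). For both, the KO-labelled libraries lay below the WT-labelled ones. Without EP300 KO replicate 1, 5 genes of this list fell, without EP300 KO replicate 2, 4 did, and without EP300 WT replicate 1 and EP300 WT replicate 2, 1 and 0 rose. Among 10 other collagens tested, 2 fell and 3 rose, and without EP300 KO replicate 1, EP300 WT replicate 1 or EP300 WT replicate 2, 1 rose. Col5a3, a further chain of type V collagen, rose from 15.9 and 15.1 to 44.3 and 42.2 CPM (1.48, SE 0.088), opposite in sign to Col5a2. Col7a1 passed narrowly at very low counts (1.53, SE 0.57, edgeR adjusted p = 0.0498), and leaving out 1 library gave adjusted p-values of 0.122 to 0.311.

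Of 11 other laminins and basement membrane genes, 3 fell and 3 rose, and without EP300 WT replicate 1 or EP300 WT replicate 2, 1 fell and 1 rose. Lama3 rose from 0.790 and 0.935 to 5.38 and 3.39 CPM (2.34, SE 0.32). Lamc3 fell at very low counts (-1.59, SE 0.58, edgeR adjusted p = 0.0441), and leaving out 1 library gave adjusted p-values of 0.109 to 0.285. Of 18 other matrix proteins tested, 9 fell and 2 rose (median -0.39). The summed level of the whole list went the other way, from 2712 and 2743 CPM under the WT label to 3037 and 3135 under the KO label. Aebp1, a collagen-binding protein, fell from 32.8 and 30.8 to 5.56 and 10.3 CPM (SE 0.17 on the log2 scale, edgeR adjusted p = 1.32e-07). Eln, elastin, fell from 5.003 and 5.20 to 1.22 and 2.13 CPM (-1.60, SE 0.26). Both were lower in each KO-labelled library, and 5 and 4 genes of the list fell without EP300 WT replicate 1 and EP300 WT replicate 2.

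Of 27 other proteases and inhibitors tested, 6 fell and 8 rose, and without EP300 WT replicate 1, 4 fell and 4 rose. Plat, tissue plasminogen activator, fell from 17.8 and 17.04 to 2.72 and 4.08 CPM (-2.35, SE 0.16). Timp4, a metalloproteinase inhibitor, had 3 counts under the WT label and 45 under the KO label. Scaled to library size the ratio was 16.5, with a 95% interval from 5.31 to 83.2 that covers counting error only. Of 19 matrix receptors tested, 6 fell and 1 rose (31.6% and 5.26%, beside 17.5% and 16.7% of all genes tested). The integrin subunits Itga2 (-1.64, SE 0.29) and Itga3 (-0.93, SE 0.093) had the largest changes among those that passed. Without EP300 WT replicate 1 or EP300 WT replicate 2, 3 of the receptors fell, and without EP300 KO replicate 2, 10 did.

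**Figure D4:**
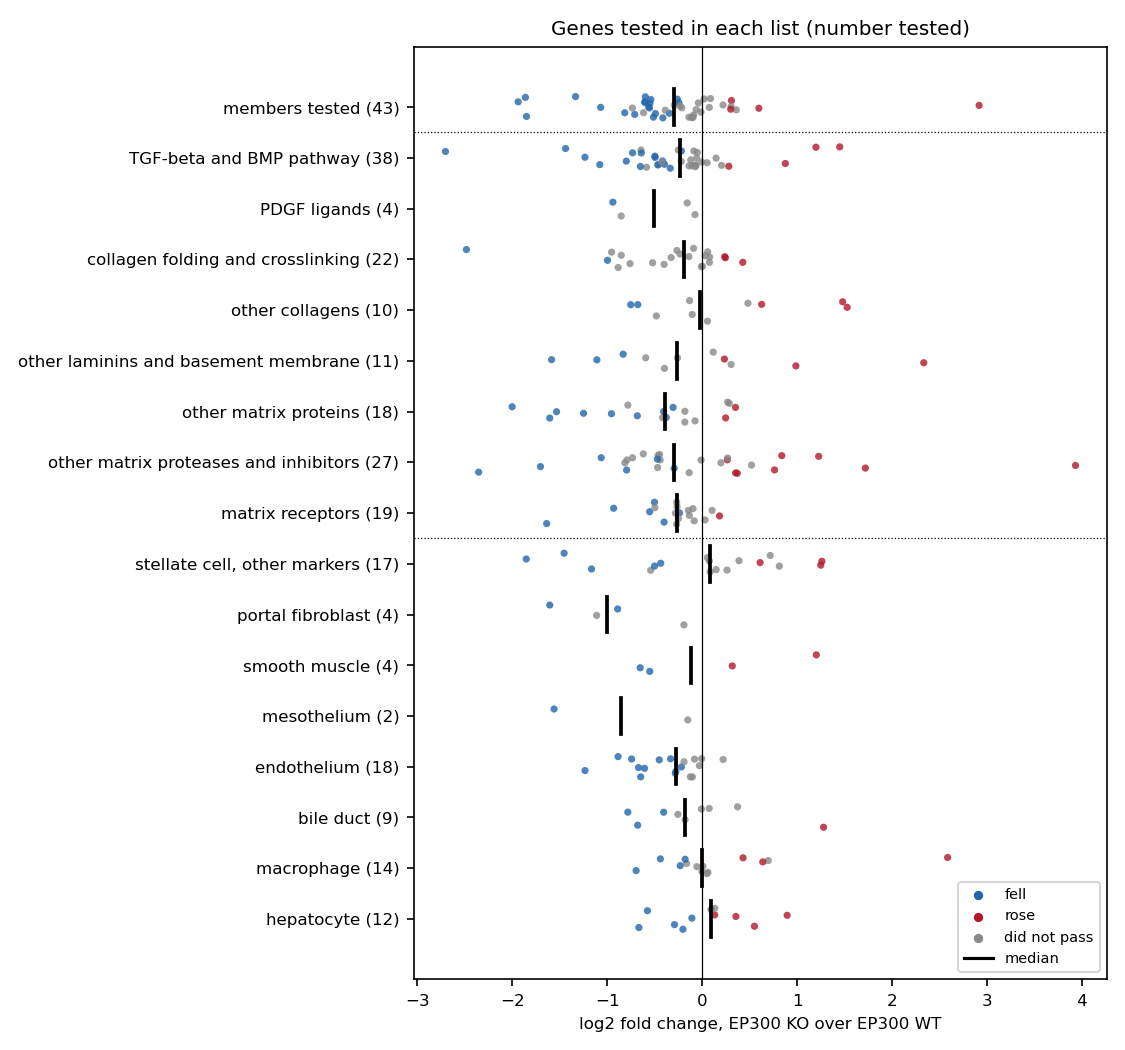
Log2 fold change between KO-labelled and WT-labelled libraries (x axis) of every tested gene (points) in each list (y axis), with the median as a bar. Blue fell, red rose, grey did not pass. The median of the members is -0.29, that of the TGF-beta and BMP pathway -0.23 and that of hepatocyte markers 0.10.

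Markers of other cells that make matrix were examined beside these results. The counts below stand beside 17.5% of all genes tested that fell and 16.7% that rose. Of 10 portal fibroblast markers, 4 could be tested and 2 fell, and the list summed to 25.9 to 27.8 CPM under the WT label and 16.6 to 22.4 under the KO label. Entpd2 stood at 16.6 and 15.3 against 11.98 and 15.9 CPM and did not pass (-0.19), Eln and Cd34 fell (Cd34 from 3.69 and 3.48 to 1.56 and 2.30 CPM), and Pi16 did not pass (-1.11). The 6 markers too low to test included Mfap4, at 0 to 0.0527 CPM, and Thy1, at 0.316 to 0.868 CPM. Of 7 mesothelial markers, 2 could be tested and 1 fell, and the list summed to 4.16 to 5.51 against 2.13 to 2.43 CPM, with Wt1 at 0 in both KO-labelled libraries. Of 9 bile duct markers tested, 3 fell and 1 rose, with sums of 176 to 177 against 137 to 142 CPM. Of 14 macrophage markers, 4 fell and 3 rose, with sums of 1121 to 1138 against 1024 to 1034 CPM, and without either WT-labelled library 1 fell. Of 12 hepatocyte markers, 5 fell and 4 rose (median 0.10), while their summed level was lower. It was 155054 to 156185 CPM under the WT label and 132394 to 138356 under the KO label. Mean CPM went from 37367 to 25078 for Trf, from 15720 to 9910 for Apoa1 and from 78219 to 72611 for Alb. It rose from 2060 to 3834 for Tat, from 3132 to 4591 for Cps1 and from 2630 to 3367 for Ttr. Apob, the last of the 4 that rose, went from 4484 to 4917. Of the exon sequence of Trf, 63.5% overlaps another gene, whose reads cannot be told apart without strand. The part of these cells in the changes of the members was not tested.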

How the data were processed

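RNA-seq counts of 4 libraries were used, 2 labelled EP300 KO and 2 labelled EP300 WT. The deposited table holds raw read counts, as whole numbers for each Ensembl gene. STAR, HTSeq, DESeq2 and mm10 appear, with no role, in the submitters' processing notes. The name of the deposited counts holds the word Hisat, which is not among these. The program that aligned the reads is therefore not settled here. Per the labels' protocols, libraries came from a TruSeq RNA kit. The strand setting and annotation of the counting are not given in the sources used here. The table holds 4 columns of other samples, which were not used. Symbols, positions and merged exon lengths came from GENCODE M21 (mm10) and matched 55144 of 55385 identifiers.

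Counts were tested with edgeR 4.0.16 in R 4.3.3, with the quasi-likelihood test and TMM. Genes passed filterByExpr (minimum count 10), and the model held the group alone, with 2 residual degrees of freedom. Adjustment was by Benjamini-Hochberg over 14200 genes, at 0.05. The SE is derived from the fold change and its F statistic. Replicates differed by more than sampling noise (chi-square per degree of freedom 2.72 in WT and 5.94 in KO). The fit was tested on simulated data.

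Members and lists were chosen with earlier results of these data known. Values per library are given for members that passed at 2-fold or more, the 2 of each role highest per kilobase, the resting stellate markers and Tgfb1, and for others added after values were seen. Each pathway list gives its 2 passing genes with the largest change, apart from items that are not reported here. Alternatives were DESeq2 1.42.0, limma-voom (limma 3.58.1), other scalings and filters, a replicate block, and each library left out.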

Additional observations from a re-analysis of the deposited data

How the results depend on the processing

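All 24 members called kept their direction under every alternative that tested them, and 13 were called in each. The count of genes called was 2703 without a filter, and leaving out 1 library gave 2306 (EP300 WT replicate 2) to 5154, with 2602 without EP300 WT replicate 1. Members that rose numbered 2 without a filter and 2 to 4 with 1 library left out, and genes called in the pathway lists 38 to 70. Requiring at least a 2-fold change left 6 members called. The median of the members was -0.36 under library size scaling and -0.35 with a minimum count of 50, where 37 members were tested. DESeq2 called 16 members lower and 3 higher, and the unfiltered fit 14 and 2, where they called 23% and 11% of all genes tested, beside 34.2% in the fit reported. The sign changed for some members that did not pass. Lamb1 was at -0.045 under library size scaling. Leaving out 1 library gave Dcn -0.10 to 0.085, Loxl1 -0.10 to 0.27, Loxl2 -0.076 to 0.26, Mmp2 -0.020 to 0.81 and Tgfb1 -0.19 to 0.10. The causes were not tested. The replicate numbers showed no pairing (correlation of deviations 0.0061 across genes), and a replicate block gave 5190 genes called, with 23 members lower and 4 higher. Few counts limit Acta2, Timp1, Mmp2, Loxl1 and Tagln, and exon overlap also limits Tagln.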
